A study of Mus musculus with 112 samples.

Results

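Reduced representation bisulfite sequencing (RRBS) was used to measure DNA methylation (DNAme) in mouse sperm, and the regions described here are the autosomal ones that were neither methylated nor unmethylated in unexposed males. A cytosine of a CpG was scored when at least 4 libraries of each of the 7 F0 sperm groups had a value for it. Scored cytosines at most 100 bp apart were joined, and a region needed at least 3 of them over more than 50 bp. Of 61474 such regions, 3949 (6.42%) had a mean between 25% and 75% in control wild type (WT) sperm. These 3949 partly methylated regions are the members described here, and their control WT mean is the value that chose them.

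In mammalian sperm most CpGs lie at an extreme. CpG islands at gene starts are kept free of methylation, and most CpG-poor sequence and repeats are methylated during male germ cell development. A level between these extremes can arise when cells of the same sample differ, or when neighbouring cytosines of the same stretch differ, and a mean over a region does not tell these apart.

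The study asked whether cigarette smoke (CS) changes sperm DNAme, whether the change recedes after exposure, whether it reaches the sons, and whether loss of NRF2 acts alike. F0 males of the C57BL/6J strain were unexposed (control WT, n = 10), exposed to CS for 60 days from 6 to 7 weeks of age and collected within 3 days (smoked WT, n = 9), or exposed and then kept for 3 lengths of time, from 28 to 171 days, as recovery 1 (n = 9), recovery 2 (n = 10) and recovery 3 (n = 10). Nrf2-/- males, which lack a working Nfe2l2 in every cell, were unexposed (control Nrf2-/-, n = 10) or CS-exposed (smoked Nrf2-/-, n = 9). The gene's product, NRF2, is the transcription factor that switches on antioxidant and detoxifying enzymes. Brain here means prefrontal cortex. A son of an Nrf2-/- sire is Nrf2+/- himself, so in brain the genotypes of sire and son change together. All F1 sons, aged 14 to 17 weeks, had CAST/EiJ mothers. Their sperm came from control WT sires (n = 6) or smoked WT sires (n = 7), and their brain from control WT, smoked WT, control Nrf2-/- or smoked Nrf2-/- sires (n = 8 each).

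Genotype and sperm identity were checked against the labels where the values allowed it. A control WT F1 brain sample carries an Nrf2-/- strain in another label and was grouped by its title. Of 6 cytosines of Nfe2l2 with a value in all 48 WT sperm libraries, 4 had a value in 0 of 19 Nrf2-/- libraries. Mean DNAme over 9 promoters that are methylated on the maternal allele in somatic cells was between 0.131% and 3.10% in every F0 sperm library. Of these promoters, 6 read between 22.5% (Peg13) and 39.3% (Slc38a4) in F1 brain, whereas Inpp5f (0.817%) and Plagl1 (2.14%) were low and Fkbp6 was high (81.6%). Windows upstream of H19 and Rasgrf1, taken as loci methylated in sperm, read only 0.948% and 0.877% in control WT sperm, so these windows did not act as positive controls. F0 sperm libraries had a value at 800605 to 1855573 positions, F1 sperm libraries at 510221 to 1429075 and F1 brain libraries at 1332992 to 1711397. The read depth behind a value is unknown. All Nrf2-/- F0 libraries have facility numbers below those of all WT libraries, and brain libraries of Nrf2-/- sires below those of WT sires, so in both tissues genotype and the order of facility numbers cannot be told apart, and no control males of the later ages were measured beside the recovery groups.

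Sequences are shown for the regions on which the results turn. They were read from the RefSeq mm10 (GRCm38) assembly, plus strand, 5′ to 3′, in lower case with each CpG that was measured in capitals. A region that overlaps no gene is named throughout for the nearest coding start, which for Adamts9 is 330796 bp away. A first set holds regions that were lower in recovery males than in smoked WT males. Adamts9 is named for the nearest coding gene and is intergenic (chr6:93274288-93274355), Ephb1 lies within 1 kb of an annotated transcript start (chr9:102274105-102274218), Prickle2 is intronic (chr6:92596847-92596911), and Rprml is intergenic (chr11:103666965-103667053).
Adamts9: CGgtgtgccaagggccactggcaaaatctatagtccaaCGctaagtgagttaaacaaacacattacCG
Ephb1: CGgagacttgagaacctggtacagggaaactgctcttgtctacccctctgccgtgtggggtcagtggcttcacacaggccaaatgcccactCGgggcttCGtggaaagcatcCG
Prickle2: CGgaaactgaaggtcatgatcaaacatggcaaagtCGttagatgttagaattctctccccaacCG
Rprml: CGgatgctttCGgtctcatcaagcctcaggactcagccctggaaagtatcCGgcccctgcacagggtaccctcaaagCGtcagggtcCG

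A second set holds the regions that differed most between smoked Nrf2-/- and smoked WT sperm, and the region that differed in brain. Cacnb4 is intronic (chr2:52509939-52510032), Neb lies at an annotated transcript start (chr2:52338999-52339070), Efcab3 is coding (chr11:105117116-105117248), 2210408I21Rik is intronic (chr13:77584905-77585006) and Osbpl6 is intronic (chr2:76447349-76447413).
Cacnb4: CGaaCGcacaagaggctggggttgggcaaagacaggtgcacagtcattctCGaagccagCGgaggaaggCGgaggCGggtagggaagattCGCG
Neb: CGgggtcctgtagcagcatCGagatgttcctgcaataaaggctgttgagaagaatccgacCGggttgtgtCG
Efcab3: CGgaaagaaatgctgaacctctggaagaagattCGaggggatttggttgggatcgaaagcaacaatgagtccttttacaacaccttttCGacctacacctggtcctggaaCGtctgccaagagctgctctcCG
2210408I21Rik: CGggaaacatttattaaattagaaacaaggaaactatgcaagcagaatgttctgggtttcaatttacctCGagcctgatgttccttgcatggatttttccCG
Osbpl6: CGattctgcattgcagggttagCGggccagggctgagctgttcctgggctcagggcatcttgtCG

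The last set shows the kinds of partly methylated region. Lrmda (chr14:22255619-22255709) and Wif1 (chr10:121083908-121083999) were at an even level along their length. Egln3 (chr12:54080920-54080970) and Rgs7 (chr1:175497672-175497722) held cytosines at both extremes. Ccser1 (chr6:61977975-61978053) varied most between libraries among the members with a value in every F0 library.
Lrmda: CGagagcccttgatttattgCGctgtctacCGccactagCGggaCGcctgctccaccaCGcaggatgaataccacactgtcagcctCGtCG
Wif1: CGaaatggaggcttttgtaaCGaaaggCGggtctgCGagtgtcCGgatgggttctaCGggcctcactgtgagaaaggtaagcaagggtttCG
Egln3: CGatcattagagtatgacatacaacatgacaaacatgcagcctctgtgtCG
Rgs7: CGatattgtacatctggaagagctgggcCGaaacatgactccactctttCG
Ccser1: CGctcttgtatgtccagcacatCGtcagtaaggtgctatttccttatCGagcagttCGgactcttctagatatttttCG

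The members formed the floor of the distribution of control WT levels. Regions below 25% numbered 34329 (55.8%) and regions above 75% numbered 23196 (37.7%). The emptiest 5-point intervals, 40% to 45% and 55% to 60%, held 335 regions each, against 29748 below 5% and 13534 at 95% or above. Within the limits the count fell from 486 regions at 25% to 30% to these middle intervals and rose again to 511 at 70% to 75%, with 1963 members below and 1986 above 50%. The limits cut through a continuous distribution. Just inside them lay regions at Gm30735 (25.015%), Hand1 (25.030%), Cpt1a (74.992%) and Scn11a (74.996%), and just outside lay Mtss1 (24.940%), Clic5 (24.990%), Sall1 (75.004%) and Gm20532 (75.006%).

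**Figure D1:**
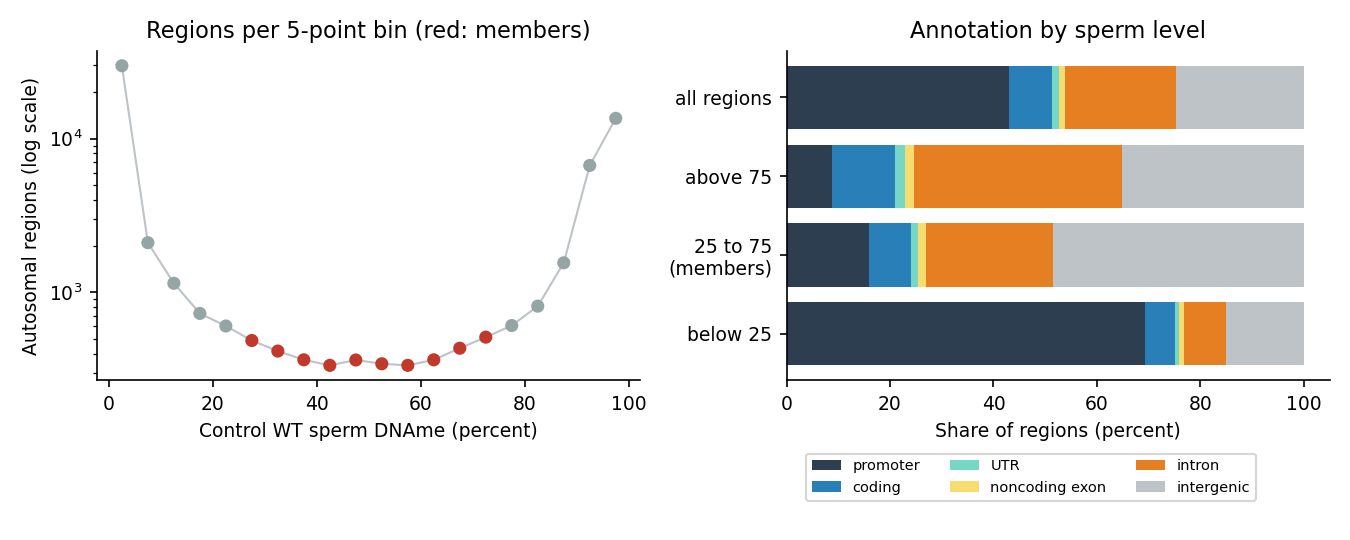
Left: number of autosomal regions (log axis) in each 5-point interval of control WT sperm DNAme (percent), with the intervals of the members in red. Right: share (percent) of regions in each annotation class, for regions below 25%, members, regions above 75% and all regions. The members occupy the sparse middle, where intervals hold 335 to 511 regions, and 48.5% of them are intergenic.

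The members were more often intergenic than any other class, and poor in CpG. Of the 3949, 1917 (48.5%) were intergenic, 965 (24.4%) intronic, 626 (15.9%) within 1 kb of an annotated transcript start and 322 (8.15%) coding, whereas 69.3% of regions below 25% and 8.82% of regions above 75% lay at transcript starts. Read the other way, 12.6% of intergenic regions were partly methylated, against 7.36% of intronic, 6.28% of coding and 2.37% of promoter regions. The median distance to a coding gene start was 40195 bp for members, 848 bp for regions below 25% and 44417 bp for regions above 75%. The ratio of observed to expected CpG in the surrounding 500 bp had a median of 0.357 in members, 0.671 below 25% and 0.329 above 75%. The share that was partly methylated fell with this ratio, from 13.1% of regions under 0.2 to 0.269% of those at 1 or more. In position and CpG content the members thus stood nearer to methylated than to unmethylated regions. These are counts over regions and carry no test.

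Repeats set the members somewhat apart from both extremes. Repeat-masked sequence covered more than 50% of the bases in 22.7% of members, 12.8% of regions above 75% and 2.21% of regions below 25%. Another region lay within 2 kb of 941 members (23.8%), against 42.2% of all regions. For 630 of the 941 a neighbour was below 25%, while for 158 one was above 75% and for 24 both kinds were present. Of the 25936 regions with a neighbour over all regions, these counts were 22853, 2759 and 369. The share of regions that were partly methylated varied little by chromosome, from 4.83% on chromosome 11 to 7.97% on chromosome 3.

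A region mean within the limits hid different patterns along the DNA. In 1336 members (33.8%) every cytosine was itself between 25% and 75% in control WT, and in 399 (10.1%) the region held a cytosine below 25% and another above 75%. Lrmda, named for a gene linked to melanocyte differentiation, was among the most even of the members with 6 or more cytosines, with its 9 cytosines between 43.4% and 47.6%. The 8 cytosines of Wif1, which encodes a secreted inhibitor of WNT signalling, lay between 52.6% and 57.4%. Of the regions with the widest range, Rgs7, which encodes a regulator of G protein signalling, had cytosines from 0.0781% to 99.6%. Its central CpG was above 95% on both strands. Its outer CpGs, both in the sequence TCGA, read 3.83% on the minus strand and 95.6% on the plus strand at the left end, and 0.0781% on the plus strand and 99.6% on the minus strand at the right end.

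Such strand gaps occurred mainly at the enzyme sites that start and end RRBS fragments. The libraries were cut with MspI, which recognises CCGG, and TaqαI, which recognises TCGA, and bases added when a cut end is filled in do not carry the methylation of the sample. TCGA cytosines made up 29.5% of member cytosines and 11.2% of all region cytosines, and CCGG cytosines 22.5% and 20.4%. Of 2824 member CpGs measured on both strands, 153 (5.42%) differed by more than 50 points between strands, against 0.221% of such CpGs over all regions. Of these 153, 131 were TCGA sites, 11 were CCGG sites and 11 were outside both. They lay in 121 members (3.06%), of which 73 were exactly 51 bp long. Part of the set was therefore chosen with values at cut sites, and how far fragment ends shaped those values was not tested.

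Cytosines outside the cut sites were examined alone. At least 1 cytosine outside both sites was present in 3557 members, and over these cytosines alone 2836 (79.7%) had a control WT mean between 25% and 75%, 95 were below and 626 above. With 3 or more such cytosines, 1240 of 1362 (91.0%) were within the limits. These cytosines are part of the mean that chose the members, so shares of this kind are in large part built in. Over member cytosines the mean control WT level was 52.9% outside both sites, 47.6% at TCGA and 43.4% at CCGG. The other members had cut-site cytosines only.

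Members also differed more between libraries than regions at the extremes. The median standard deviation (SD) between libraries of a group was 7.28 points in control WT and ranged from 6.67 (smoked WT) to 7.74 (control Nrf2-/-). In control WT it was 1.05 below 25% and 2.52 above 75%. It was highest at 8.12 points for regions between 45% and 55%, and lower toward both limits (7.33 between 25% and 35%, 6.501 between 65% and 75%). A percent has most room to vary in the middle of its scale, and the reads behind each value are unknown, so sampling of reads and difference between males cannot be told apart in these SDs.

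**Figure D2:**
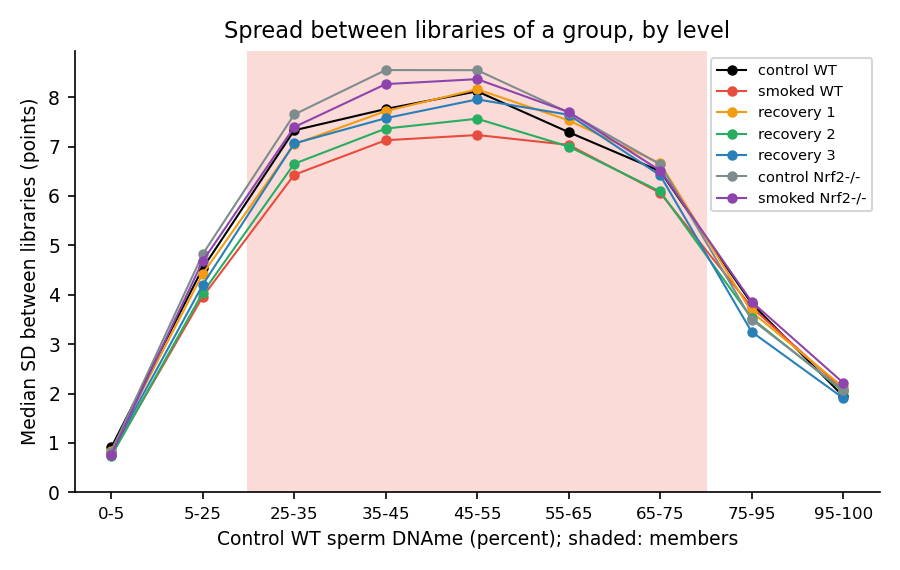
Median SD between libraries (percentage points) of regions grouped by control WT sperm DNAme (percent), with a line for each of the 7 F0 sperm groups and the members' range shaded. In control WT the median rises to 8.12 points between 45% and 55% and is 0.908 below 5% and 1.95 at 95% or above.

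Members that varied in a group also tended to vary in another. Across the 3949 members the SD in control WT and the SD in control Nrf2-/-, which share no library, had a Pearson correlation of 0.671 and a Spearman correlation of 0.721. These points share their cytosines, their level and the coverage of the locus. Spread changed little with location, from a median of 7.24 points at promoters to 8.05 in noncoding exons, and with size, from 7.69 points with 3 cytosines to 7.33 with 6 or more. In F1 brain of control WT sires the same members had a median SD of 3.97 points.

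The least and the most spread members were of different kinds. Among members with a value in every F0 library, Egln3, which encodes a prolyl hydroxylase that marks hypoxia-inducible factors for degradation, had the smallest mean within-group SD, at 1.20 points, and its 10 control WT libraries ran from 62.2% through a median of 65.6% to 67.3%. This intergenic region, 122890 bp from the Egln3 start, holds 3 cytosines over 51 bp, 1 at 0.988% and the others up to 98.5%. Its level of about 65.6% is thus a mean of extremes. The strands of a CpG in it differed by 97.5 points, and how far fragment ends shaped such values was not tested. Adgrf1 (1.52 points) and Rfx3 (1.54 points) also had cytosines near both extremes. Ccser1, a gene of little known function, had the largest mean SD of the same members, at 18.1 points, followed by Slc35g1 (17.6 points) and Ice1 (16.2 points). The libraries of Ccser1 ran from 31.1% through a median of 79.2% to 95.7% in control WT, and from 7.12% through 72.4% to 96.5% in smoked WT. Its SD was not large in every group, at 25.5, 29.3 and 24.9 points in control WT, smoked WT and recovery 2, 20.7 in smoked Nrf2-/-, 10.8 in recovery 1, 8.46 in recovery 3 and 6.69 in control Nrf2-/-. Members with a strand gap over 50 points had a median SD of 4.42, against 7.66 in the others.

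Most members stayed off the extremes in the other F0 sperm groups. In the 57 libraries of these 6 groups, 82.2% of 213951 member values were between 25% and 75%. All of these libraries that had a value lay within the limits in 840 members (21.3%), while 482 had a library below 25% and another above 75%, and 79 (2.00%) had a library below 10% and another above 90%. By group means, 91.5% of members were within the limits in smoked WT, 89.7% in recovery 1, 90.4% in recovery 2, 87.3% in recovery 3, 89.2% in control Nrf2-/- and 89.4% in smoked Nrf2-/-. The control WT limits chose the members, so a lower share in every other group was built in. In total 2999 members (75.9%) had the means of all 7 F0 groups within the limits.

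Members were more often within the limits in sons' sperm than in sons' brain. In F1 sperm of control WT sires, 2481 members had a value and 75.1% of them were between 25% and 75%, with a Pearson correlation to F0 control WT of 0.571 across members. Of the 32632 regions with a value in this group, 4944 (15.2%) were within the limits in F1 sperm, and 2481 were members. The F0 control WT share of 6.42% is over all 61474 regions, a different set. The members' median difference from F0 control WT was 5.67 points, and 24.1% of them were over 20 points apart, against 1.27% in F0 control Nrf2-/-. In F1 brain, 3852 had a value, 35.2% were within the limits, 56.4% were above 75% and 8.44% below 25%, with a median of 78.7% and a correlation of 0.0920. Over all regions in this group 19.2% were within the limits and 36.9% above 75%. For comparison the brain median was 1.42% for regions below 25% in sperm and 85.1% for those above 75%. Sons and sires differ in maternal strain as well as in tissue, and correlations across members share cytosines and coverage.

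**Figure D3:**
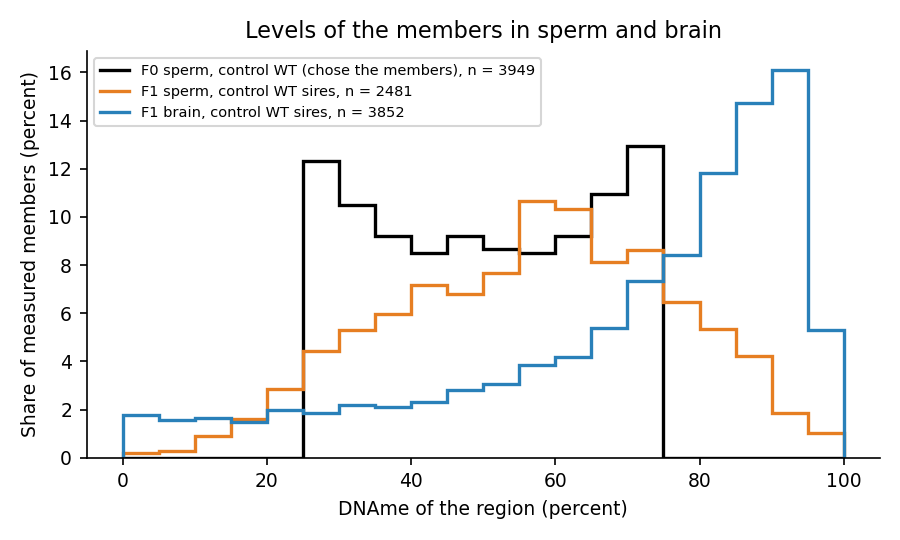
Share of measured members (percent, vertical axis) in each 5-point interval of DNAme (percent, horizontal axis) for control WT F0 sperm, whose mean chose the members, F1 sperm of control WT sires and F1 brain of control WT sires. In brain most members sit above 75% (56.4%), and in F1 sperm 75.1% sit between 25% and 75%.

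The members that were low in brain differed in location from those that were high. The 325 members below 25% in brain lay at transcript starts in 25.2% of cases and were mostly repeat in 2.77%. The 2173 above 75% lay at transcript starts in 14.3% and were mostly repeat in 29.1%. The lowest in brain was Ddx39b, which encodes an RNA helicase of messenger RNA export, at 0.410% ± 0.282 (SD, n = 8) in sons of control WT sires against a control WT sperm level of 28.8%. Rph3a, a synaptic vesicle protein gene, read 0.641% ± 0.629 in brain (n = 8) and 73.3% in control WT sperm, and Tsc22d2 read 0.777% ± 0.415 (n = 8) and 26.9%. At the other end Vmn1r2, a vomeronasal receptor gene, read 98.6% ± 2.64 in brain (n = 7) and 61.8% in sperm. Fbxo11, a ubiquitin ligase subunit gene, read 98.5% ± 1.44 (n = 8) and 46.03%. Both regions are intergenic, 7741 bp and 96219 bp from the coding starts they are named for. These regions were picked for their brain level, so the gaps are a description.

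Against control WT, which chose the members, the groups are described without a test. The median difference over members was -1.30 points in smoked WT, -1.62 in recovery 1, -0.875 in recovery 2, -1.44 in recovery 3, -1.03 in control Nrf2-/- and -0.616 in smoked Nrf2-/-. Differences over 5 points were found in 20.7% of members in smoked WT (background over all regions 2.7%), 25.6% in recovery 1 (3.38%), 21.5% in recovery 2 (2.58%) and 31.8% in recovery 3 (4.1%). For control and smoked Nrf2-/- the shares were 36.5% (5.14%) and 35.0% (4.99%). Members were chosen on control WT and are more variable than other regions, so these shares carry no reading. The tests below leave control WT out of each contrast. They used limma's moderated test over all regions with Benjamini-Hochberg (BH) adjustment.

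After CS exposure ended, a small number of members had lower DNAme than in males sampled just after exposure. Adamts9 was lower in recovery 2 and recovery 3, and Ephb1, Prickle2, Rprml, Pds5a, Ajap1, Cdh4, Dtx1 and Memo1 were lower in recovery 3, by between 7.51 and 33.9 points. In recovery 1, 0 of 3949 members passed (background 0%), and 188 (4.76%) had an unadjusted p below 0.05 (background 5.06%). In recovery 2, 1 member passed (background 0.00325%), and it was Adamts9. In recovery 3, 9 passed and all were lower (background 0.0342%, and 0.0277% for lower). This count was 5 with only the 2 groups in the fit, 5 with member limits of 30% to 70%, and 16 with array weights. A term for runs of 5 facility numbers also lowered it. Over all members the median difference of recovery 3 from smoked WT was -0.0716 points, and 367 (9.29%) had an unadjusted p below 0.05 (background 7.06%), 212 lower and 155 higher. In all 9 members the recovery 3 mean also lay below the control WT mean. Control WT chose the members, so this is a description. No control males of the later ages were measured, so age and time since exposure cannot be told apart. Contrasts of the 3 recovery groups share the smoked WT libraries.

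Adamts9 encodes a secreted metalloproteinase of the extracellular matrix. Its region ran from 48.6% through a median of 67.1% to 73.6% in the 9 smoked WT libraries and from 54.96% through 66.9% to 71.2% in control WT. It ran from 45.6% through 53.2% to 65.7% in recovery 1, from 34.2% through 40.2% to 47.8% in recovery 2, and from 28.1% through 33.2% to 43.6% in recovery 3. Libraries of both later recovery groups lay below every smoked WT library. The difference from smoked WT was -24.0 ± 3.12 points (SE, n = 10 and 9) in recovery 2, with a BH-adjusted p of 8.25e-06 from limma, and -30.5 ± 3.12 points in recovery 3 (n = 10 and 9, limma adjusted p = 2.11e-09). Its leftmost cytosine, in a CCGG site, had means of 43.2% in control WT, 40.4% in smoked WT, 13.5% in recovery 2 and 7.12% in recovery 3. The central CpG, outside both cut sites, was at 71.5% and 71.2% on its strands in smoked WT, at 54.3% and 52.2% in recovery 2 and at 47.8% and 45.7% in recovery 3. The region read 53.9% and 53.3% in control and smoked Nrf2-/- sperm, 93.3% ± 4.75 (SD, n = 6) in F1 sperm of control WT sires and 32.3% ± 7.90 (n = 8) in their F1 brain.

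Ephb1 encodes a receptor for ephrin-B ligands that guides axons. Its libraries ran from 56.99% through 68.1% to 93.8% in smoked WT and from 18.5% through 38.9% to 54.2% in recovery 3, with no overlap. The difference was -31.4 ± 5.00 points (SE, n = 10 and 9, limma adjusted p = 0.000641). Control WT libraries, from 48.4% through 58.5% to 78.7%, overlapped both groups.

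Prickle2 encodes a planar cell polarity protein. Its libraries ran from 27.8% through 41.6% to 47.1% in smoked WT and from 9.43% through 16.2% to 25.2% in recovery 3, again without overlap, and the difference was -22.6 ± 3.75 points (SE, n = 9 and 9, limma adjusted p = 0.00097). The control WT mean of 30.2% lay between these group means.

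Rprml, a relative of the cell cycle gene reprimo, ran from 65.1% through 78.4% to 96.7% in smoked WT and from 16.7% through 48.6% to 80.3% in recovery 3, so its groups overlapped. The difference was -33.9 ± 7.07 points (SE, n = 9 and 8, limma adjusted p = 0.0415). This call was lost on a logit scale (0.0588), with only the 2 groups in the fit (0.402), with a term for runs of 5 consecutive facility numbers (0.0942), and on leaving out any of 5 smoked WT or 5 recovery 3 libraries (0.0550 to 0.140).

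The other recovery 3 members had smaller differences. Means are given for recovery 3, smoked WT and control WT in turn, and each p is for recovery 3 against smoked WT. The Pds5a region is intergenic, 20792 bp from the start of a cohesin regulator gene. It was at 36.7%, 54.4% and 48.3% (limma adjusted p = 0.000677). The Ajap1 region is intergenic, 234433 bp from the start of an adherens junction protein gene. It was at 15.1%, 27.4% and 26.4% (limma adjusted p = 0.0112). The Cdh4 region, in an intron of the gene of R-cadherin, was at 61.9%, 72.2% and 71.1% (limma adjusted p = 0.00211). The Dtx1 region, in an intron of a Notch signalling regulator gene, was at 48.9%, 57.7% and 56.1% (limma adjusted p = 0.0112). The Memo1 region is intergenic, 119491 bp from the start of a cell motility gene. It was at 66.4%, 73.9% and 73.7% (limma adjusted p = 0.0455).

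**Figure D4:**
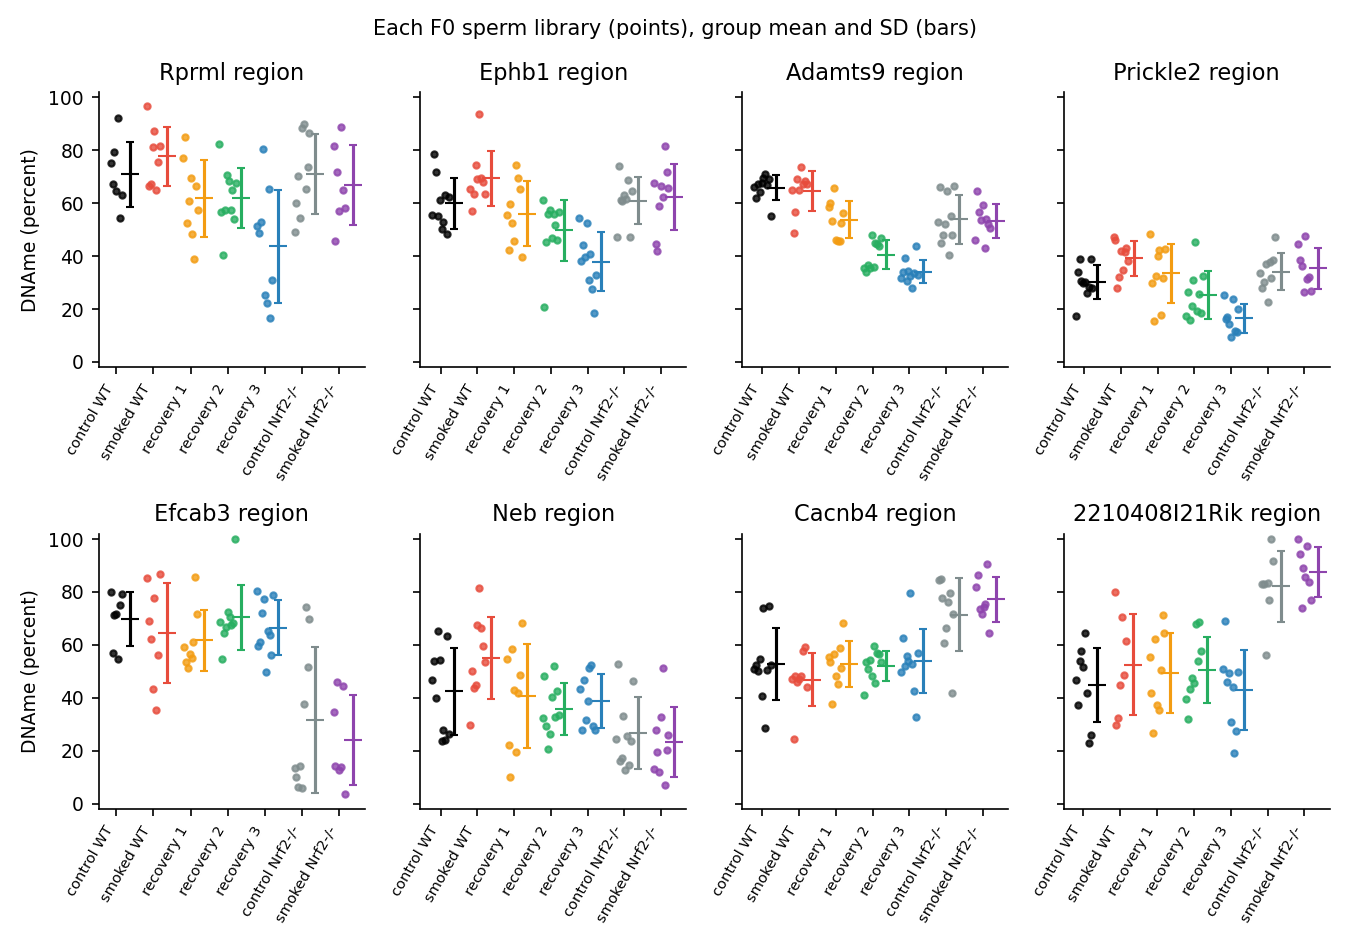
DNAme (percent) of each F0 sperm library (points) with the group mean and SD (bars) in the 7 groups, for the 4 members with the largest differences between recovery 3 and smoked WT (top) and between smoked Nrf2-/- and smoked WT (bottom). Adamts9 in recovery 3 (28.1% to 43.6%) lies below all smoked WT libraries (48.6% to 73.6%), while Efcab3 in the Nrf2-/- groups spans a wide range.

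CS exposure of Nrf2-/- males gave no member past the threshold. Against control Nrf2-/-, 0 of 3949 members passed (background 0.00651%), and 239 (6.05%) had an unadjusted p below 0.05 (background 5.78%). The member with the smallest p was at Exoc3l, a paralogue of a vesicle tethering gene, at chr8:105292890-105293045. It ran from 33.03% through 55.01% to 92.4% in 8 smoked libraries and from 18.3% through 33.3% to 54.2% in 10 control libraries, a difference of 25.02 ± 5.64 points (SE, limma adjusted p = 0.269).

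Between genotypes in smoked males, many more members differed. Of 3949 members, 75 (1.90%) passed between smoked Nrf2-/- and smoked WT (background 0.346%), 62 higher in Nrf2-/- (background 0.202%) and 13 lower (0.145%). Their differences ran from 5.28 to 40.3 points, with a median of 13.1. Among the 75, 22 were intronic, 21 intergenic, 15 coding and 15 at transcript starts, against 965, 1917, 322 and 626 of all 3949 members. The means of control Nrf2-/- and of the 3 recovery groups entered neither the rule nor this contrast, to which they lent only their spread. Control Nrf2-/- differed from the average of the recovery groups with the same sign as smoked Nrf2-/- from smoked WT in all 75, by a median of 8.60 points, and in 2678 of the 3874 other members (69.1%). Recovery males had been exposed to CS and were older, so this is a description. The control Nrf2-/- mean lay on the same side of control WT in 73 of the 75, but the unexposed genotypes were close in some. At Ccdc32 control Nrf2-/- read 45.1%, control WT 45.8% and smoked WT 27.8%, and at Tshz1 the values were 55.9%, 55.7% and 51.1%. Control WT chose the members, so this too is a description. Libraries of smoked Nrf2-/- and smoked WT did not overlap in 28 members (0.709%, background 0.145%), of which 15 were among the 75. With only the 2 groups in the fit, 23 passed.

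The members that passed between smoked Nrf2-/- and smoked WT, called genotype members here, were more frequent near the targeted gene. Within 25 Mb of Nfe2l2 on chromosome 2, 9 of 84 members (10.7%) passed, against 66 of 3865 (1.71%) elsewhere. Of all regions fitted, 19 of 1118 (1.70%) passed in the same window and 194 of 60354 (0.321%) elsewhere. Regions that are no members passed in 10 of 1034 cases (0.967%) in the window and in 128 of 56489 (0.227%) elsewhere, so the share near the gene was higher outside the members as well. Neb, Cacnb4, Pla2r1, 4932414N04Rik and Osbpl6 are 5 of these 9. The null allele, the chromosome segment inherited with it and the order of facility numbers cannot be told apart.

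Of the members with the largest differences, Cacnb4, which encodes a beta subunit of voltage-gated calcium channels, was higher in Nrf2-/- sperm. It ran from 64.5% through 74.9% to 90.7% in smoked Nrf2-/- and from 24.4% through 47.1% to 59.3% in smoked WT, without overlap, a difference of 30.4 ± 5.20 points (SE, n = 8 and 9, limma adjusted p = 0.000247). Control Nrf2-/- ran from 41.7% through 76.2% to 84.98% and control WT from 28.6% through 51.5% to 74.7%. Its F1 brain means were between 39.6% and 48.4% in all 4 groups of sires.

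2210408I21Rik, a gene without a known role, was also higher. Its libraries ran from 74.1% through 87.3% to 100% in smoked Nrf2-/- and from 29.8% through 48.5% to 80.2% in smoked WT, a difference of 35.1 ± 7.25 points (SE, n = 8 and 7, limma adjusted p = 0.00663). The groups overlapped, and the call was lost with only the 2 groups in the fit (0.0856) and with array weights (0.0870).

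Efcab3, which encodes an EF-hand calcium-binding protein, was lower. Its libraries ran from 3.48% through 14.1% to 45.8% in smoked Nrf2-/- and from 35.6% through 65.5% to 86.7% in smoked WT, a difference of -40.3 ± 8.44 points (SE, n = 7 and 8, limma adjusted p = 0.0077). Control Nrf2-/- spanned 5.77% to 74.5%, wider than any WT group. With only the 2 groups in the fit the adjusted p was 0.134.

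Neb encodes nebulin, which spans the thin filament of skeletal muscle. The region ran from 7.07% through 20.4% to 51.3% in smoked Nrf2-/- and from 29.5% through 53.5% to 81.6% in smoked WT, a difference of -31.9 ± 6.71 points (SE, n = 9 and 9, limma adjusted p = 0.00708, and 0.0826 with only these groups in the fit). It was methylated in brain whatever the sire, with group means between 94.1% and 96.2%.

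The 3 genotype members with the smallest p were chosen after their values were seen. Mrto4, named for a nearby ribosome assembly gene, ran from 46.4% through 49.02% to 50.5% in smoked Nrf2-/- and from 23.4% through 25.9% to 28.3% in smoked WT, a difference of 22.7 ± 1.27 points (SE, n = 9 and 9, limma adjusted p = 1.14e-22). All 19 Nrf2-/- libraries lay above all 48 WT libraries. 4932414N04Rik ran from 67.5% through 79.2% to 88.8% against 41.4% through 54.4% to 58.3%, a difference of 25.2 ± 2.58 points (n = 9 and 9, limma adjusted p = 1.01e-10). Pla2r1, which encodes a phospholipase A2 receptor, ran from 0.781% through 4.59% to 7.64% against 18.3% through 29.995% to 43.9%, a difference of -26.5 ± 3.06 points (n = 9 and 9, limma adjusted p = 7.22e-09).

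In brain, none of these 3 regions passed between sons of control Nrf2-/- and control WT sires, and libraries of the sire genotypes overlapped. In the 4 brain groups Mrto4 read between 53.1% and 56.1%, 4932414N04Rik between 90.1% and 91.5%, and Pla2r1 between 26.2% and 35.3%. The difference between sperm and brain was not tested. Sons of Nrf2-/- sires carry a single null allele, unlike their sires.

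Osbpl6, an oxysterol-binding protein gene whose region starts at 76447349 on chromosome 2, close to the Nfe2l2 locus (75675513 to 75704641), was the only member past the threshold in the 3 brain contrasts. Of 3833 members tested between sons of control Nrf2-/- and control WT sires, 1 passed (background 0.00829%). The region ran from 35.1% through 38.4% to 40.8% in sons of control Nrf2-/- sires and from 80.4% through 82.3% to 85.6% in sons of control WT sires, a difference of -44.6 ± 1.47 points (SE, n = 8 and 8, limma adjusted p = 4.52e-20). Sons of smoked sires read 82.9% (WT) and 38.2% (Nrf2-/-). A sample of control WT F1 brain carries an Nrf2-/- strain in another label, and all 8 libraries of that group lay with the WT sires here. In F0 sperm the region read 32.3% in smoked Nrf2-/- and 46.7% in smoked WT, a difference of -14.5 ± 2.36 points (n = 9 and 9, limma adjusted p = 8.61e-05), which was also named after its values were seen.

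The Osbpl6 difference was not of the same sign along the region. Its central CpG read 67.4% and 69.6% on its strands in smoked WT sperm and 0% and 1.05% in smoked Nrf2-/- sperm. The outer TCGA cytosines read 26.8% and 23.3% in smoked WT and 63.97% and 64.02% in smoked Nrf2-/-. In F1 brain the central CpG read 89.8% and 92.2% in sons of control WT sires and 0.171% and 3.74% in sons of control Nrf2-/- sires, while the outer cytosines read 80.8% and 68.1% against 74.7% and 73.7%. The fall in brain was thus carried by the central CpG. The sequence shown is that of the reference assembly, and the males' own sequence at this CpG was not examined.

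**Figure D5:**
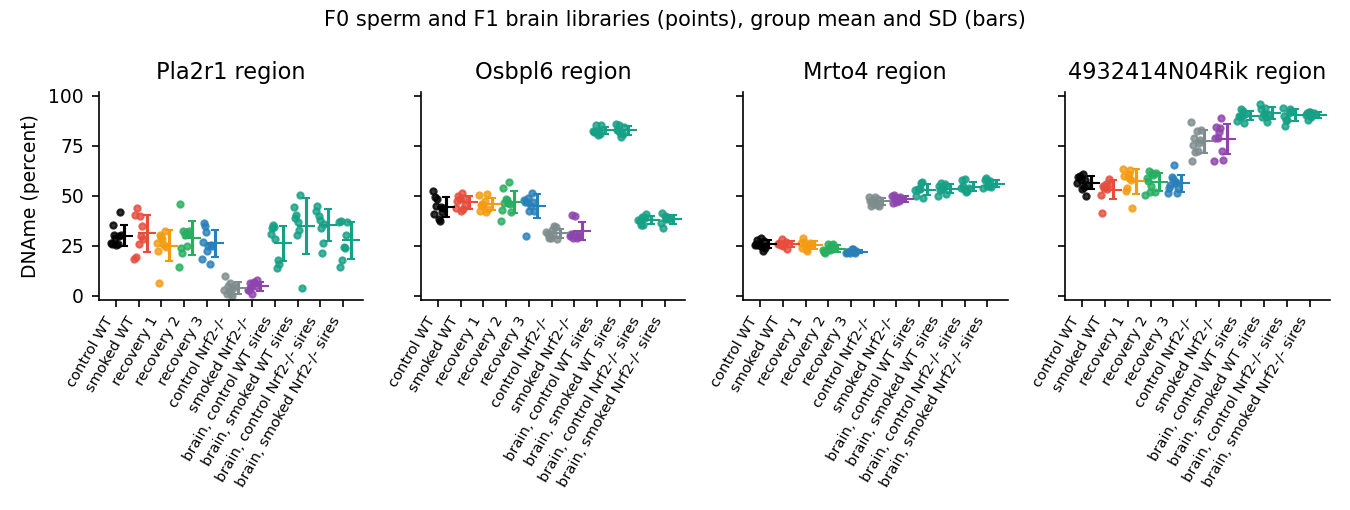
DNAme (percent) of each F0 sperm and F1 brain library (points) with group mean and SD (bars) at 4 members that differed between smoked Nrf2-/- and smoked WT sperm. At Mrto4, 4932414N04Rik and Pla2r1 smoked Nrf2-/- and smoked WT sperm libraries do not overlap and the brain groups do, whereas Osbpl6 reads 82.7% in brain of sons of control WT sires and 38.1% in sons of control Nrf2-/- sires.

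Paternal CS exposure changed no member past the threshold in sons. In F1 sperm, 0 of 2340 members passed (background 0%), with 94 (4.02%) at an unadjusted p below 0.05 (background 5.84%), 77 of them (3.29%) higher in sons of smoked sires (background 4.09%). The smallest p was at an intergenic region named for Poteg, 639068 bp away (chr8:28086737-28086805). It read 29.9% ± 9.67 (SD, n = 7) in sons of smoked WT sires and 13.3% ± 5.00 (n = 6) in sons of control WT sires (limma adjusted p = 0.836). In F1 brain, 0 of 3839 passed between smoked and control WT sires (background 0%), with 193 (5.03%) at an unadjusted p below 0.05 (background 3.9%), 158 of them (4.12%) higher in sons of smoked sires (background 3.06%). The smallest p was at Tmem267, a promoter region that read 66.03% ± 6.38 (n = 8) and 53.7% ± 5.35 (n = 8), with a limma adjusted p of 0.749. Between smoked and control Nrf2-/- sires, 0 of 3811 passed (background 0.00334%) and 399 (10.5%) had an unadjusted p below 0.05 (background 7.71%). Those lower in sons of smoked sires numbered 365, or 9.58% of the 3811 (background 6.5%). The smallest p was at an intergenic region named for Tmem132b, 514818 bp away. It read 77.5% ± 5.35 (n = 8) and 87.3% ± 3.70 (n = 8), with a limma adjusted p of 0.229.

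Spread between libraries was tested on each library's distance from its group mean. Between recovery 3 and smoked WT, 7 members passed, all more spread in recovery 3 (background 2.08%, with 0.891% more and 1.19% less spread). This count ran from 5 to 19 on leaving out each library in turn, and the counts of the next contrasts from 10 to 23 and from 13 to 34. Kif6, a kinesin gene, ran from 20.0% through 59.4% to 83.9% in 5 recovery 3 libraries and from 53.5% through 56.4% to 70.2% in 7 smoked WT libraries (limma adjusted p = 0.0349). Cradd, a death-domain adaptor gene, ran from 1.52% through 16.1% to 55.9% and from 28.9% through 32.1% to 35.4% (n = 6 and 6, limma adjusted p = 0.0384). Between smoked and control Nrf2-/-, 15 members passed, 9 more and 6 less spread in smoked (background 2.1%, with 1.05% more and 1.04% less spread). Rbm20, a splicing factor gene of heart muscle, ran from 5.01% through 41.8% to 90.7% in smoked Nrf2-/- and from 7.41% through 23.8% to 35.9% in control Nrf2-/- (n = 6 and 7, limma adjusted p = 0.00552). Pigm, which encodes an enzyme of membrane anchor synthesis, ran from 10.4% through 64.1% to 78.9% and from 50.9% through 69.1% to 79.5% (n = 7 and 8, limma adjusted p = 0.0181). Between smoked Nrf2-/- and smoked WT, 23 passed, 21 more spread in Nrf2-/- (background 2.38%, with 1.43% more and 0.953% less spread), with Rbm20 (limma adjusted p = 0.00324) and Wdr34, a dynein subunit gene (limma adjusted p = 0.0270), showing the largest gaps. The members' shares (0.177%, 0.380% and 0.582%) lay below the background. An unadjusted p below 0.05 was found in 14.4% to 14.7% of all regions, more than a calibrated test gives, and with distances taken from the group median 0 members passed in each of the 3 contrasts.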

How the data were processed

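RRBS was performed on 67 F0 sperm, 13 F1 sperm and 32 F1 brain libraries, cut with MspI and TaqαI. Per the submitters' processing notes and the study's methods, the authors aligned reads to mm10 with Bismark (version not given in the sources used here). The deposited tables hold the methylation percent of each cytosine in each library, with no read counts, so depth is unknown and no counting interval is given. Column headings carry facility numbers but no replicate numbers, so columns were assigned to groups only, and 0 columns of values were left unused.

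Regions were built as stated in the report. A library's region value was the mean of its cytosines, adjusted for which of them had a value (at least 50% were needed). Group means were fitted over all groups of a tissue and generation. A contrast tested every region with at least 4 libraries in both of its groups. It used the trended moderated test of limma 3.58.1 (R 4.3.3) and BH adjustment, with calls at 0.05. The spread test used distances from the group mean. The p-values measure the spread between libraries, which the labels number as replicates. Sons that shared a sire or a litter were not told apart, so each F1 library was counted separately. Code was tested on simulated data. Promoter means within 1000 bp of any transcript start of the GENCODE vM21 annotation.

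Named were up to 4 members past the threshold with the largest difference in each contrast of level, or else that with the smallest p, up to 2 in each contrast of spread, the 3 least and 3 most spread, the 3 with the most and least even cytosines, those next to the limits and at the extremes in brain, and, against control WT, the 2 largest differences. A region carries the name of the gene it overlaps, otherwise of the nearest coding start. The members, gene lists and alternatives were chosen with earlier results of these data known. Alternatives changed the limits, joining distance, values required, region value, scale, weights and libraries.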

Additional observations from a re-analysis of the deposited data

Results flagged for a closer look

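In groups of 4 to 10 libraries, the lowest and the highest were compared with their nearest neighbour relative to the group's range (Dixon's 95% limit). Of 50 groups examined, 5 held a library past this limit. The limit gives about 1 in 20 only for groups not picked by their values. Most of these groups belonged to regions named for a large difference or a small p, so the count is a description. Mean DNAme over the 2218 members with a value in every F0 library was 45.7% in the lowest control Nrf2-/- library, against a group mean of 49.8%. Over 2855 members, the lowest F1 brain library of smoked WT sires read 64.3%. At Ephb1 the highest smoked WT library read 93.75%, at Cacnb4 the lowest smoked WT library read 24.4%, and at 4932414N04Rik the lowest smoked WT library read 41.4%. Leaving out each of these libraries in turn changed none of the calls at Ephb1, Cacnb4 or 4932414N04Rik, and what set the libraries apart was not tested.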

How the results depend on the processing

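No paired analysis was possible because the columns carry no replicate numbers; facility numbers are not replicate numbers, and a term for runs of 5 of them is given below. Joining within 300 bp gave 7181 members, and 117 past the threshold between smoked Nrf2-/- and smoked WT. With only the 2 groups in the fit, that contrast gave 23 and recovery 3 against smoked WT 5; limits of 30% to 70% gave the latter 5 and array weights 16. The causes were not tested, apart from the fewer libraries or members that some settings hold. For spread, distances from the median gave 0, 0 and 0 (recovery 3 against smoked WT, smoked against control Nrf2-/-, smoked Nrf2-/- against smoked WT), fits of 2 groups gave 0, 0 and 1, and the logit scale gave 8 and 5 in the latter contrasts. Leaving out each library in turn gave counts of 0 to 0 in recovery 1, 1 to 1 in recovery 2, 7 to 10 in recovery 3, 0 to 0 between Nrf2-/- groups and 54 to 75 between genotypes, 0 to 0 in F1 sperm and in both brain contrasts of smoke, and 1 to 1 between control sires in brain. For spread the ranges were 5 to 19, 10 to 23 and 13 to 34. Counts moved by over 1.5 times without smoked WT columns 1 (15), 3 (13), 5 (19), 6 (11) or 9 (14) or recovery 3 column 8 (17) in the first, without control Nrf2-/- column 3 (23) or smoked Nrf2-/- column 5 (23) in the second, and without smoked Nrf2-/- column 1 (13) in the third. A term for runs of 5 facility numbers, added after the data were seen, gave 0, 1 and 7 for the recovery groups. Of 303 alternatives to counts 280 stayed within 1.5 times. No named region changed direction in 549 alternatives, and 48 lost the threshold, 31 of them in spread. Read depth is unknown, so its part in the spread between libraries was not tested.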

Other observations

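A small number of members lay near developmental genes. Within 5 kb of Hox genes 5 of 176 regions were members, and of developmental transcription factor genes 12 of 751, or 2.84% and 1.598%, against 4.28% of regions within 5 kb of any protein-coding gene and 2.37% of promoter regions. At Hoxd3, which patterns the body axis, the region read 37.3% ± 2.51 (SD) in control WT sperm and 8.03% in F1 brain of control WT sires, and at Hoxc5 the regions read 32.1% and 25.5% in sperm and 4.02% and 2.07% in brain. Otx2, a head and forebrain factor, read 51.98% in sperm with group means from 50.5% to 52.2% over all F0 groups, and 36.5% in brain. Members near developmental transcription factor genes were more often lower than higher in brain, but both directions occurred. An intronic Pax2 region read 34.6% in control WT sperm and 93.3% in brain, and Tbx1 read 58.4% and 71.6%. Emx1 and Ptf1a were also higher in brain. Of the imprinted and the germline list, 1 of 140 (0.714%) and 1 of 71 (1.41%) regions were members.

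Of regions near NRF2 target genes, 9 of 112 (8.04%) were members, against 4.28% of regions within 5 kb of any protein-coding gene. Keap1, whose product holds NRF2 in check, read 42.5% ± 3.85 (SD) in control WT, 38.6% in smoked Nrf2-/- and 40.5% in smoked WT. Gclc, a subunit gene of the enzyme that limits glutathione synthesis, read 42.7% ± 3.40, 36.5% and 43.0% in the same groups at its promoter. An intronic region of Slc7a11, the cystine transporter gene, read 42.6% ± 21.9, 25.3% and 48.7%. Tkt read 66.2% in smoked Nrf2-/- and 75.4% in smoked WT, Ces1g 33.3% and 33.1%, and Gstm2, a glutathione transferase gene, 30.5% and 23.1%. None of these 9 passed in any tested contrast of level or spread. Of regions near DNA methylation genes 3 of 58 (5.17%) were members, at Tet1, a 5-methylcytosine oxidase gene (35.9% in control WT sperm, 93.0% in brain), and Mbd3. Of the calcium channel and synapse list, 19 of 525 (3.62%) were members, and the level of Cacnb4 and of a Nrxn3 region passed between smoked Nrf2-/- and smoked WT. In the same contrast the spread of a Cacna1a region and of another Nrxn3 region passed. Both spread calls were lost with distances taken from the group median. In this contrast 1.90% of all members and 0.346% of all regions passed in level, and 0.582% and 2.38% in spread. The Nrxn3 region that passed in level, in a gene of a presynaptic adhesion protein, read 54.2% and 46.1%. Regions near clustered protocadherin genes were members in 5 of 78 cases (6.41%).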
